A study of Mus musculus with 2 samples.

Results

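The 10 genes described here make, conjugate and move bile acids: Cyp7a1, Cyp8b1, Akr1d1, Cyp27a1, Cyp7b1, Baat, Abcb11, Abcb4, Slc10a1 and Slc10a2. They were chosen by name, as the probe sets that the platform annotation gives to one of these symbols alone, which found 17 of the 45101 probe sets and 10 of the 18193 named genes. In the liver of a Tmprss6-deficient mouse, the sterol hydroxylase genes Cyp7a1 and Cyp7b1 differed most among the enzymes. On the brightest probe set of each, Cyp7a1 was 7.46-fold and Cyp7b1 2.26-fold lower than in a control liver. The next brightest set gave 3.11-fold lower for Cyp7a1 and 2.77-fold lower for Cyp7b1. Slc10a2, an importer of bile acids with 1 probe set, was above the detection floor only in the Tmprss6-deficient liver. It was at least 10.9-fold higher against the floor used here and at least 3.66-fold against a higher floor. The other 7 genes lay within 1.5-fold.

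Bile acids are made from cholesterol in hepatocytes. The classic pathway opens with a hydroxylation by CYP7A1, and CYP8B1 then decides how much cholic acid is formed. The alternative pathway opens with CYP27A1 in mitochondria, and CYP7B1 hydroxylates the oxysterols that result. The products are conjugated to an amino acid, pumped into bile, taken up again in the ileum and returned to the hepatocyte through portal blood, and bile acid receptors in liver and gut hold back new synthesis.

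Liver RNA from 1 control male and 1 Tmprss6-deficient male (Tmprss6-/-, made by gene targeting) was measured on Affymetrix mouse arrays, 1 array per animal. Both mice were 3 months old, of mixed 129Sv/C57BL6 background, and fasted overnight. Tmprss6 encodes matriptase-2, a hepatocyte protease that holds down hepcidin; the series asks how the liver transcriptome differs without it. The labels do not say whether the control was a littermate, at what hour the livers were taken, or which part of the gene was removed.

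A single array per genotype allows neither a replicate error nor a test, and every difference is one between these 2 animals. Signals are the MAS5 values, in arbitrary units, brought to a common trimmed mean, and ratios are Tmprss6-deficient over control. A floor of 17.8, the median signal of all probe sets, stands in for detection. The only error the data hold is how far the log2 ratios of 2 probe sets for one gene lie apart (the probe set SD), which leaves out variation between animals. It was 0.46 at signals up to 64, 0.37 up to 256, 0.33 up to 1024 and 0.18 at higher signals. The targeted gene Tmprss6 read 1869 in the control and 88.0 in the deficient liver, the direction its label gives, though no source used here says if the deletion covers this probe set. All 8 hepatocyte marker genes with a probe set were above the floor on both arrays, 7 of them within 1.5-fold, and Alb (albumin) read 29362 and 27834. Markers of other cell types, of the liver and from outside it, differed in both directions. Over all 12243 named genes above the floor on at least 1 array, 9.26% were lower and 8.81% higher by 1.5-fold or more. The marker lists are too short for their counts to be told apart from those shares. At 1.5-fold or more, 2 of 6 Kupffer cell genes were lower (Clec4f 1.76-fold, Vsig4 1.72-fold) and Marco was 1.76-fold higher. Of 6 endothelial genes 2 were lower (Clec4g 1.98-fold, Kdr 1.55-fold) and Lyve1 was 4.70-fold higher. Among 6 stellate cell and fibroblast genes, Acta2 (smooth muscle actin) was 5.77-fold lower and the other 5 lay within 1.5-fold. Of 5 neutrophil and lymphocyte genes above the floor, Ptprc was 1.56-fold lower and Ngp 1.58-fold higher, and of 3 exocrine pancreas genes Cela1 was 1.57-fold lower. The part of these cells in the differences of the 10 genes was not tested. RNA from the whole organ cannot tell fewer cells of a type from less RNA per cell.

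**Figure D1:**
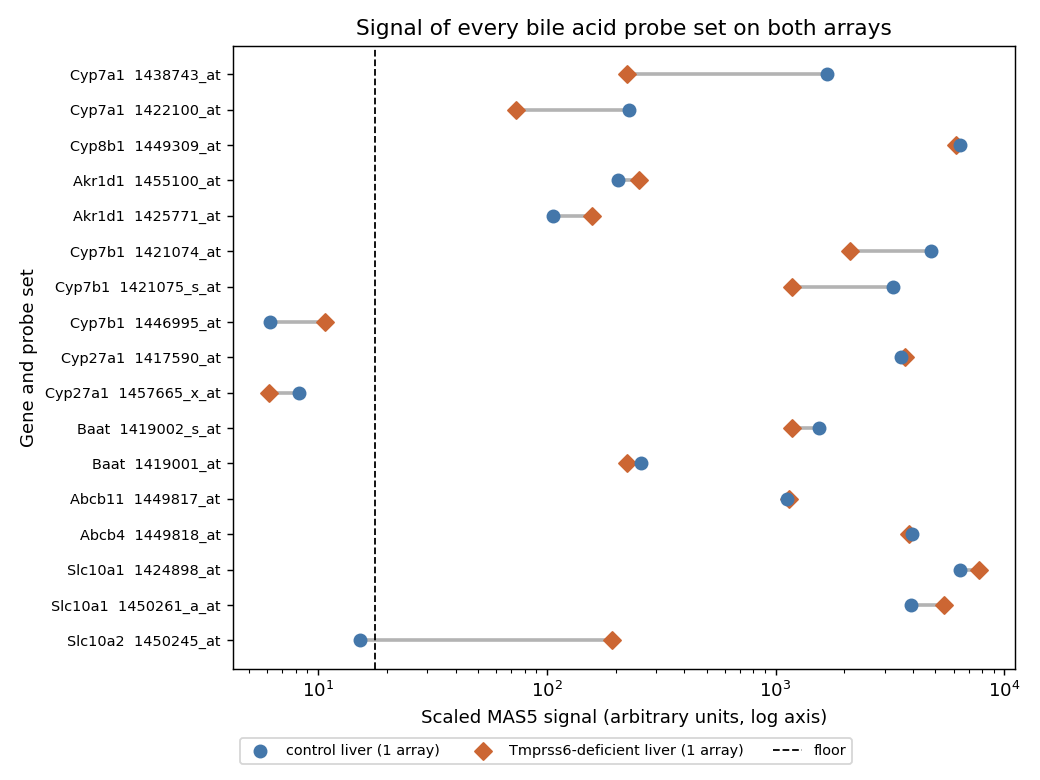
Scaled signal (log axis, arbitrary units) of each of the 17 probe sets in the control liver (circles) and the Tmprss6-deficient liver (diamonds), 1 array each, with the floor of 17.8 dashed. Both Cyp7a1 sets and the 2 bright Cyp7b1 sets lie lower in the deficient liver, Slc10a2 crosses the floor from 15.3 to 194, and the pairs of Cyp8b1, Abcb11 and Abcb4 nearly coincide.

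Upstream sequence from RefSeq (GRCm38.p6) was at hand for 7 of the 10 genes, and not for Cyp7a1, Cyp7b1 or Baat. It was taken as the 250 bases before the transcription start, on the strand of the gene. These windows were searched on both strands for exact matches to 7 short motifs: the core of an inverted nuclear receptor repeat (GGTCANTGA), a nuclear receptor repeat (TGACCTTTG), an extended half-site (TCAAGGTCA), the half-site inside it (AAGGTCA), the D-box bound by DBP, TEF, HLF and NFIL3 (TTATGNAA), the E-box (CACGTG) and the TATA box (TATAAA). Every match to TCAAGGTCA is also one to AAGGTCA. Those of 4 genes are shown, in lower case with motif matches in capitals. Slc10a2 was the member higher by 1.5-fold or more, and Cyp8b1 the classic enzyme close between the livers. Akr1d1 and Cyp27a1 hold the D-box matches.
Slc10a2 (chr8:5105288-5105537, minus strand): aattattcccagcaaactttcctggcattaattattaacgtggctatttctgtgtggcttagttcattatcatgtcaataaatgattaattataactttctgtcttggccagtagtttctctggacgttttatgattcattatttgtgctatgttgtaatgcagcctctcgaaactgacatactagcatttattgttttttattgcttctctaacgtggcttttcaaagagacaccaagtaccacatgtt
Cyp8b1 (chr9:121916306-121916555, minus strand): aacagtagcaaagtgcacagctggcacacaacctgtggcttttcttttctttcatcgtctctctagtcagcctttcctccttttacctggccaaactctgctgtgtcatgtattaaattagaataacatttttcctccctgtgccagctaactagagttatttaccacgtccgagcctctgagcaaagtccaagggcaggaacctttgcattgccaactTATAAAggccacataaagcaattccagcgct
Akr1d1 (chr6:37529923-37530172, plus strand): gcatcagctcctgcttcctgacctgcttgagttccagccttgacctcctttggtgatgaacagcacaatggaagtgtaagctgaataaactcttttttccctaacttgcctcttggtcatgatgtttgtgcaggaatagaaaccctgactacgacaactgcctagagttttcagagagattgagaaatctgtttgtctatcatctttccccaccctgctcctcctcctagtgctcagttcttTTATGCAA
Cyp27a1 (chr1:74713285-74713534, plus strand): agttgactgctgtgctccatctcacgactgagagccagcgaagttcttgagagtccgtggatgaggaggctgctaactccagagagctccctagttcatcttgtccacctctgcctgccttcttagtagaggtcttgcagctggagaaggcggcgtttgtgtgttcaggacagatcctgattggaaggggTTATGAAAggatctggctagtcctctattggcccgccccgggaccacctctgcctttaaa

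The Slc10a2 window held none of the 7 motifs and was poor in G and C, at 34.4% against a median of 52.4% over all 32851 windows of the same length. In Cyp8b1, a TATA box lay 31 to 26 bases before the start, and 12.4% of all windows hold one somewhere on either strand. The only other TATAAA match was in a Slc10a1 window, 128 to 123 bases before the start and on the opposite strand. A D-box match lay 8 to 1 bases before the start of Akr1d1 and 60 to 53 bases before that of Cyp27a1, and 3.07% of all windows have one. Among the 8 windows of the 7 genes, none matched GGTCANTGA, TGACCTTTG, TCAAGGTCA, AAGGTCA or CACGTG, which 0.731%, 0.426%, 0.387%, 4.08% and 6.02% of all windows hold. A match is a description of letters, and a missing one says only that these letters are not in this window. Cyp7a1, Cyp7b1 and Baat had no window and were not searched.

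In the classic pathway the first enzyme was lower, while the enzyme of its cholic acid branch was close between the livers. Cyp7a1, the rate-limiting cholesterol hydroxylase, read 1673 in the control and 224 in the deficient liver on probe set 1438743_at. On 1422100_at it read 228 and 73.5. Both sets were thus lower in the deficient liver, with log2 ratios of -2.90 and -1.64. Only 6 of the 10254 genes above the floor on both arrays had a lower ratio than the brighter set, and 4 of the 2408 genes of like signal (256 to 1024) were at least as low, counting Cyp7a1 itself. The size of the difference is less settled than its direction: the sets disagreed by 1.26 on the log2 scale, a gap met or passed by 13 of 974 gene pairs of like signal. The fold was 7.46 on the one set and 3.11 on the other.

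Cyp8b1, the sterol hydroxylase that sets the share of cholic acid, read 6416 and 6138 on its only probe set, a log2 ratio of -0.064 against a probe set SD of 0.18. On its brighter set, Cyp7a1 thus differed from Cyp8b1 by -2.83 on the log2 scale, against a combined probe set SD of 0.37. That SD is smaller than the 1.26 by which the Cyp7a1 sets themselves disagreed. Akr1d1, the reductase that gives the bile acid ring its bend, read 206 and 253 on 1455100_at. Its other set, 1425771_at, read 107 and 157. Both Akr1d1 sets were higher in the deficient liver, opposite to Cyp7a1, at 1.23-fold and 1.47-fold. The ratios of 0.30 and 0.56 compare with a probe set SD of 0.37 at this signal, and 21.1% of genes of like signal were at least as high as the brighter set.

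In the alternative pathway the entry enzyme was close between the livers and the later one lower. Cyp27a1, which starts this pathway and also shortens the side chain in the classic one, read 3532 and 3687 on 1417590_at, a ratio of 0.062. Its other set, 1457665_x_at, was below the floor on both arrays (8.30 and 6.10), as was the Cyp7b1 set 1446995_at (6.20 and 10.7). Cyp7b1, the oxysterol hydroxylase, read 4786 and 2119 on 1421074_at. On 1421075_s_at it read 3273 and 1182. Its bright sets were lower by 2.26-fold and 2.77-fold. They disagreed by 0.29 on the log2 scale, and 62 of 355 gene pairs of like signal disagreed by as much or more. At a probe set SD of 0.18, the log2 ratios were -1.18 and -1.47, and 12 of 1029 genes above 1024 were at least as low as Cyp7b1. Against Cyp27a1, Cyp7b1 was lower by 2.36-fold, a difference in log2 ratio of -1.24 with a combined SD of 0.25. A set name ending in _s_at means that its probes can match transcripts of more than one gene.

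Conjugation was read by Baat, which joins bile acids to taurine or glycine. It read 1550 and 1181 on 1419002_s_at and 258 and 224 on 1419001_at. Both sets were lower in the deficient liver, by 1.31-fold and 1.15-fold. The log2 ratio of the brighter one, -0.39, was 2.22 times the probe set SD, and 11.6% of genes above 1024 were at least as low.

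The canalicular exporters were close between the 2 livers. Abcb11, the bile salt export pump, read 1117 and 1148. Abcb4, which flips phosphatidylcholine into bile, read 3934 and 3846. Their ratios of 0.039 and -0.032 were a small part of the probe set SD of 0.18, and each gene rests on 1 probe set.

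Of the sodium-dependent importers, Slc10a2 was far higher and Slc10a1 higher by less than 1.5-fold. Slc10a1, which takes bile acids from portal blood into the hepatocyte, read 6383 and 7752 on 1424898_at. On 1450261_a_at it read 3902 and 5429. The sets were 1.21-fold and 1.39-fold higher in the deficient liver, and 10.9% of genes of like signal were at least as high as the brighter one. Slc10a2, the importer of the ileum that is also known from bile duct cells and kidney tubules, has 1 probe set, 1450245_at, which read 15.3 in the control and 194 in the deficient liver. The control value is under the floor, so only a bound can be given: at least 10.9-fold, or 3.44 on the log2 scale. With the floor at the 70th percentile of signals, the bound was at least 3.66-fold.

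Markers of the cells that could carry Slc10a2 were near or under the floor. Of 10 cholangiocyte marker genes with a probe set, none was above the floor on both arrays, and their summed signal was 180 in the control and 94.5 in the deficient liver. Krt19 (a bile duct keratin) read 49.2 and 15.1, Epcam 19.3 and 17.7, Sox9 11.6 and 6.70 and Cftr 3.10 and 9.59. The marker highest in the deficient liver, Tspan8, read 11.3 and 22.0. Small intestine markers were likewise low: neither liver reached the floor for Vil1, Cdx1, Cdx2, Cdh17, Lct, Muc2 or Fabp6. Fabp6, the ileal bile acid binding protein, read 1.60 and 7.70. Fabp2, which read 2046 and 2076, was the exception, and Alpi read 18.5 and 23.3. Of 8 kidney tubule and glomerulus markers, 5 stayed under the floor in both livers, and the sums were 90.5 and 73.6. Among the other 3, Kap read 25.1 and 6.20, Lrp2 17.8 and 18.8, and Aqp2 16.9 and 27.9, at least 1.57-fold higher in the deficient liver as Slc10a2 was. Sums of signals this close to the floor are mostly background, and the part of these cell types in the Slc10a2 difference was not tested.

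Of the 10 genes, 2 were lower and 1 was higher by 1.5-fold or more. Over all 12243 named genes above the floor on at least 1 array, 9.26% were lower and 8.81% higher by that fold, so a count of 2 and 1 among 10 genes is not far from the background. The same 2 and 1 genes passed 2-fold, where 2.81% of all genes were lower and 2.35% higher. The median log2 ratio was 0.0034 over the 10 genes and -0.0067 over all genes. The 7 genes within 1.5-fold ranged from -0.39 (Baat) to 0.30 (Akr1d1). In 5 genes 2 probe sets passed the floor on both arrays, and in each of these 5 both sets had the same sign. How often that holds over all genes was not counted, so no weight can be put on it.

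**Figure D2:**
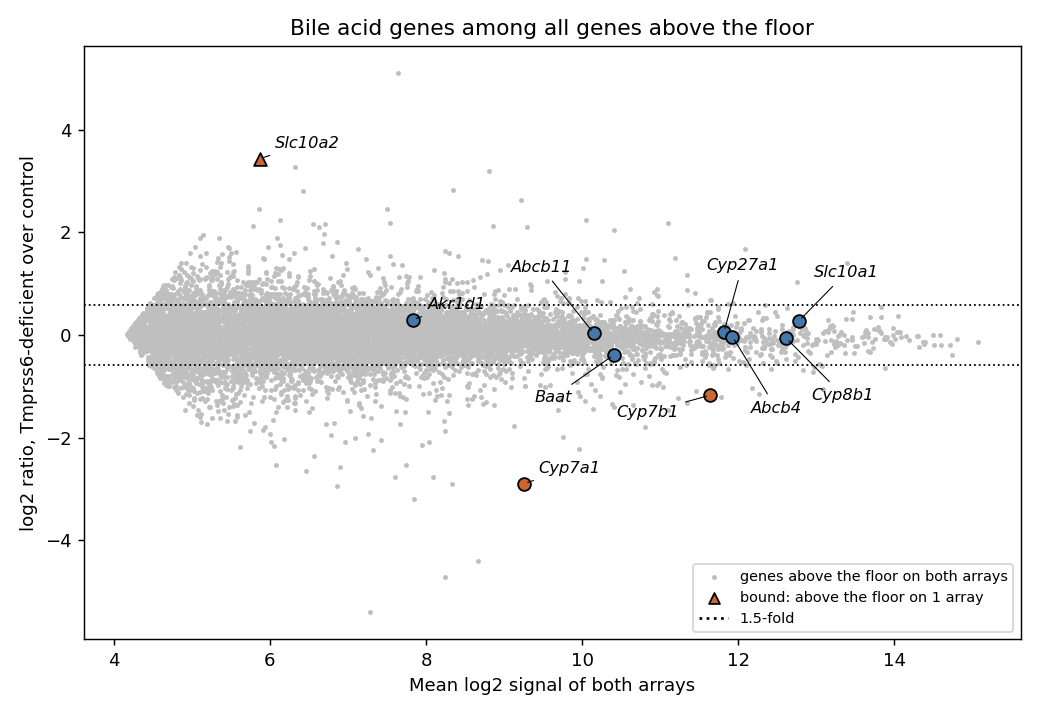
The log2 ratio of Tmprss6-deficient over control liver against the mean log2 signal, for the 10254 genes above the floor on both arrays (grey) and the 10 bile acid genes (blue within and orange past 1.5-fold, dotted lines; triangle, a bound). Cyp7a1 at -2.90, Cyp7b1 at -1.18 and Slc10a2 at 3.44 or more lie outside the lines, and the other 7 lie between -0.39 and 0.30.

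Lists of other genes around the 10 are described by counts at 1.5-fold or more, to be read against the 9.26% lower and 8.81% higher over all genes, of which 10030 of 12243 lay within that fold. Of 20 other genes of bile acid synthesis and conjugation, 18 had a probe set and all of these were above the floor on at least 1 array. Of these 3 were lower, 1 was higher and 14 lay within 1.5-fold, around a median log2 ratio of -0.088. The same 3 lower and 1 higher passed 2-fold, where 2.81% of all genes were lower and 2.35% higher. With 18 genes, the counts were not tested against these shares. Cyp2c70, which makes the muricholic acids of mice, read 3347 and 963 and was 3.48-fold lower. Akr1c6, a hydroxysteroid dehydrogenase, read 5320 and 2304 (2.31-fold lower). Sult2a8, a sulfotransferase of bile acids, read 7362 and 3304 (2.23-fold lower). These 3 lower genes each rest on 1 probe set. Cyp39a1, an oxysterol hydroxylase, went the other way, from 254 to 697, and was 2.74-fold higher, also on 1 probe set. Amacr, a racemase of side chain shortening, had the next largest ratio, -0.34. The steps shared by both pathways, such as Hsd3b7 (-0.25), Acox2 (0.17) and the bile acid ligase gene Slc27a5 (0.33), lay within 1.5-fold.

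Among 15 further transporters of bile acids and bile lipids, 13 were above the floor on at least 1 array, 1 was lower and 1 was higher by 1.5-fold or more, and the median was -0.27. Slco1a1, an uptake carrier for organic anions, read 2128 and 843 on its brighter set, 2.53-fold lower, and was 2.81-fold lower on the other. Its relatives were lower by less: Slco1b2 by 1.46-fold, with its dimmest measured set at 0.076 on the log2 scale, and Slco1a4 by 1.40-fold. Abcc2, a canalicular exporter of conjugates, read 730 and 1143, 1.57-fold higher on 1 probe set. The sterol exporter genes Abcg5 and Abcg8, which work as a pair, had ratios of -0.50 and -0.46. The basolateral exporter gene Slc51a was below the floor on both arrays, and Slc51b read 15.1 and 19.3.

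Of 20 genes that control this pathway, 16 were above the floor, all on both arrays, 4 were lower and 1 was higher by 1.5-fold or more, and the median was -0.030. Nr0b2, the repressor SHP that the bile acid receptor induces, read 592 and 261 (2.27-fold lower). Nr0b2 and Cyp7a1, which SHP is known to repress, were both lower in the deficient liver, Nr0b2 on 1 probe set. The receptor gene itself, Nr1h4 (FXR), read 572 and 819, a ratio of 0.52. Nr5a2, the activator LRH-1, read 677 and 325 on its brightest set (2.08-fold lower), while its other sets above the floor gave -0.36 and 0.89, so its direction is uncertain. Klf15, a fasting factor, was 2.15-fold lower (1445 and 672) and the xenobiotic receptor gene Nr1i3 (CAR) 1.70-fold lower (1367 and 806). Hnf4a, a hepatocyte activator of Cyp7a1 and Cyp8b1, read 3150 and 4847 on its brightest set (1.54-fold higher), and all 4 of its sets were higher, up to 2.64-fold. With both arrays scaled to their median, Hnf4a fell short of 1.5-fold. The receptor genes for the gut signal FGF15 had ratios of -0.068 (Fgfr4) and 0.058 (Klb), and Fgf15 itself read 1.60 and 1.10.

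Cyp7a1 is known to follow the liver clock, and clock output factors differed between the livers in both directions. Of 8 with a probe set, all were above the floor on at least 1 array, 2 were lower and 2 were higher by 1.5-fold or more, and the median was -0.14. Dbp, an activator that binds D-boxes, read 697 and 76.4 on its brighter set, 9.13-fold lower, and was 8.81-fold lower on the other. Nfil3, which represses through the same boxes, read 103 and 234 and was 2.26-fold higher. Tef, a relative of Dbp, was 1.71-fold lower with 1 dim set in the opposite direction, and Hlf had a ratio of 0.079. Rora was 1.82-fold higher on its brightest set alone: the other sets above the floor on both arrays ran from 1.24-fold lower to 1.26-fold higher, and a dim set under the floor in the deficient liver was at least 2.06-fold lower. Nr1d2 had ratios of -0.52 on both sets. The part of these clock factors in the Cyp7a1 difference was not tested. Akr1d1 and Cyp27a1, whose windows hold the D-box matches printed above, had ratios of 0.30 and 0.062. Cyp7a1 had no window to search for D-boxes.

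**Figure D3:**
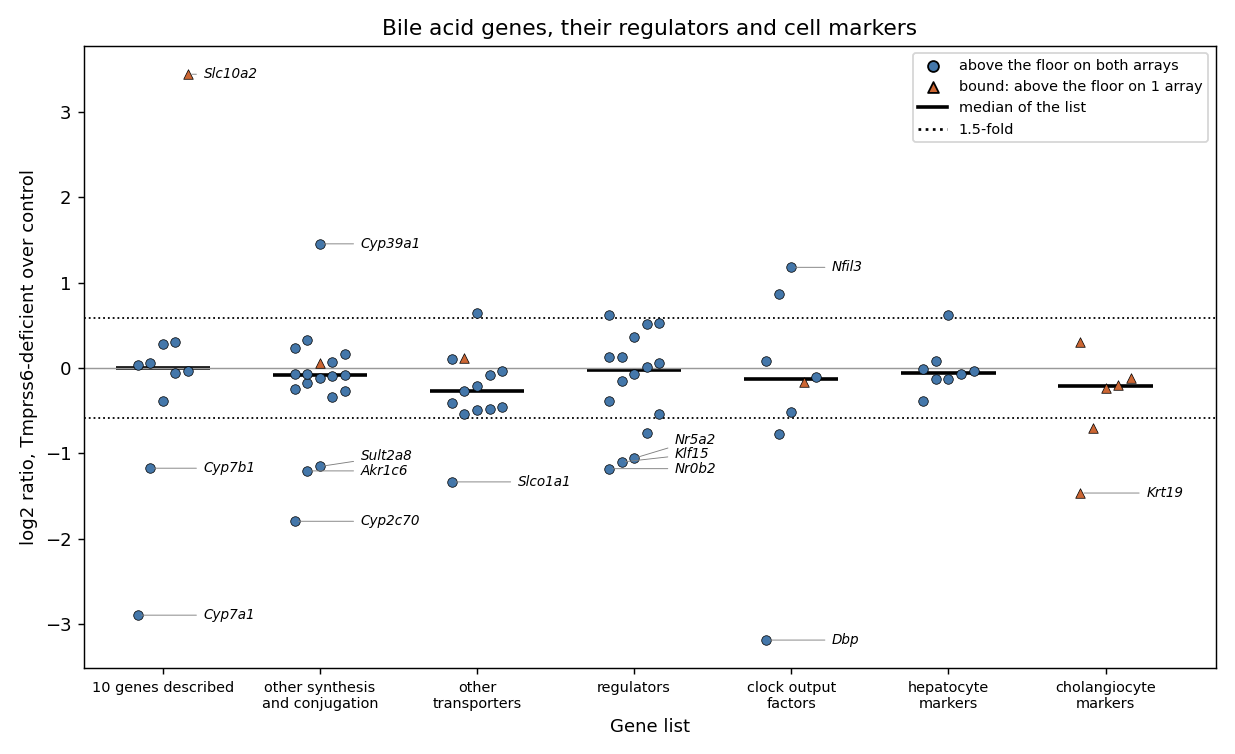
The log2 ratio of Tmprss6-deficient over control liver for the 10 bile acid genes, 4 lists of genes around them and 2 lists of cell markers (circles, above the floor on both arrays; triangles, bounds; bars, medians; dotted lines, 1.5-fold). Each list has its median between -0.27 and 0.0034, and single genes such as Cyp7a1 (-2.90), Dbp (-3.19), Cyp2c70 (-1.80) and Slc10a2 (3.44 or more) lie far from it.

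The ratios of the 10 genes were recomputed under 9 other ways of scaling, setting the floor and combining probe sets. Cyp7a1 lay between -2.95 and -2.27, Cyp7b1 between -1.32 and -1.11, and Slc10a2 between 1.87 and 3.66. The Slc10a2 values are bounds except with the floor at the 30th percentile, where both signals were above it (3.66), and with the floor as a pseudocount. Cyp8b1, Abcb11 and Abcb4 changed sign among the settings within a band of -0.12 to 0.071, so no direction can be given for them. Slc10a1, Akr1d1 and Cyp27a1 were higher and Baat was lower in all 10 settings, each within 1.5-fold, though Cyp27a1 came as near to equal as 0.0071. Several settings leave the ratio of a bright gene as it was. The reported ratios of Cyp27a1 and Akr1d1 were 0.35 and 0.81 of the probe set SD, so the settings do not settle their direction.

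**Figure D4:**
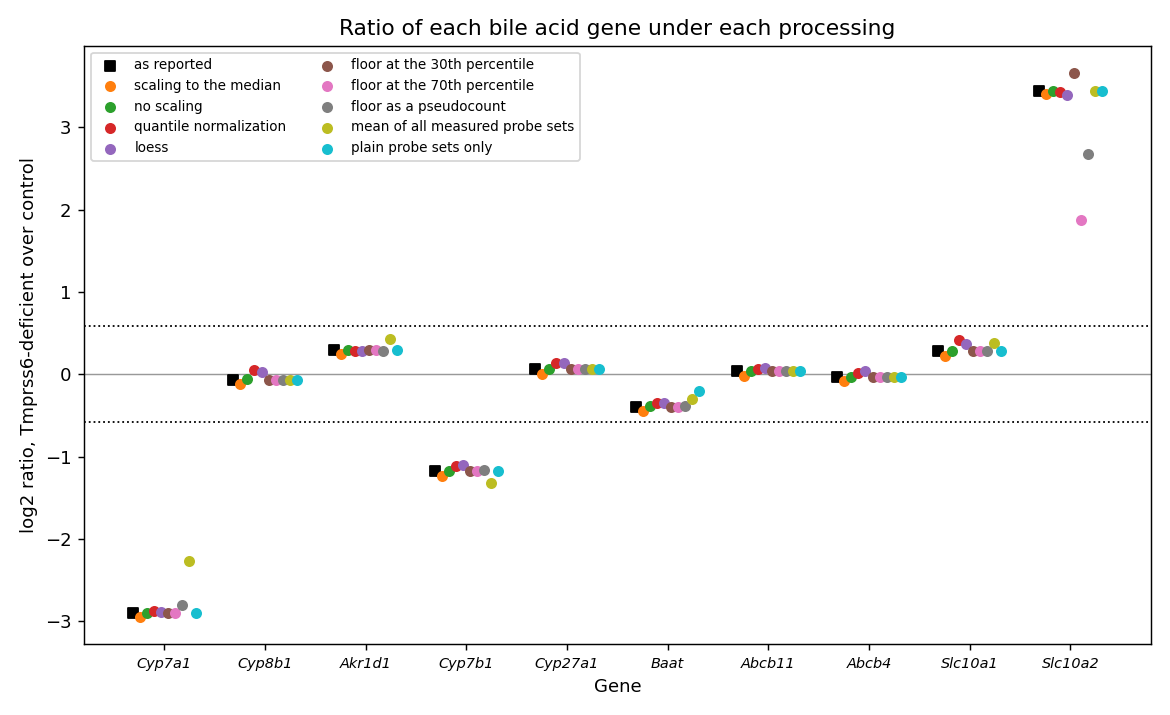
The log2 ratio of Tmprss6-deficient over control liver for each bile acid gene as reported (black squares) and under 9 other processings (coloured circles), with 1.5-fold dotted. Cyp7a1 and Cyp7b1 stay under the lower line and Slc10a2 above the upper line in each, while the other 7 stay between the lines.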

How the data were processed

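Liver RNA was labelled with biotin by in vitro transcription, per the labels' protocols. The authors deposited intensity values, 1 for each probe set and array, from MAS5 per the submitters' processing notes, with version and settings not given in the sources used here. MAS5 summarises each array alone and is noisy near background.

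Names came from the platform annotation, where 34958 of 45101 probe sets had 1 symbol. Leaving out 64 controls, the arrays were scaled to a common mean trimmed by 2% at each end (factors 1.0006 and 0.9994), floored at 17.8 and put on the log2 scale with Python 3.11.15. A gene is read by its brightest probe set over both arrays. A gene above the floor on 1 array got a bound against it, and the 5950 genes below it on both got no ratio. The probe set SD is the root mean square difference in log2 ratio of a gene's 2 brightest sets, divided by the square root of 2, over 4369 genes. The code was tested on simulated arrays.

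Members, lists and markers were chosen with earlier results of these data known. Named genes are the members, Tmprss6 and, per list, the 5 largest ratios and any bound of 2-fold or more. Alb, the other markers given by name, Hsd3b7, Acox2, Slc27a5, Abcg8, Slc51a, Slc51b, Nr1h4, Fgfr4, Klb, Fgf15 and Hlf were added after their values were seen. Protein sequences were not used here, so a planned comparison of proteins was not made.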

Additional observations from a re-analysis of the deposited data

How the results depend on the processing

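With 1 array per genotype, neither replicates nor a leave-one-out fit exist, and signal near the floor limits what can be read. No paired analysis was possible because each group holds 1 sample. Of 226 values recomputed under the alternatives, 207 stayed within the probe set spread or within 1.5 times for counts, 19 moved and 0 reversed. Only a ratio or median past 1.5-fold could be called reversed, here those of Cyp7a1, Cyp7b1 and Slc10a2. Counts could not, and sign changes of smaller ratios, such as those of Cyp8b1, Abcb11 and Abcb4, were not called reversed. The counts of members lower (2) and higher (1) were the same in every alternative. The log2 ratio of Slc10a2, a bound against the floor, moved from 3.44 to 1.87 when the floor was the 70th percentile. With the floor added to both signals as a pseudocount it was 2.67, a ratio made smaller by the added floor and not a bound. That of Cyp7a1 moved from -2.90 to -2.27 with the mean of all measured probe sets, which takes in its dimmer set. That of Baat moved from -0.39 to -0.20 with plain probe sets only, which leaves out its brighter set. At 2-fold, the count was 0 for transporters higher, 0 for regulators higher, 1 for clock factors lower and 1 for clock factors higher. Scaling to the median gave 2 transporters lower and 0 regulators higher. The floor at the 30th percentile and the floor as a pseudocount each gave 2 synthesis genes higher. The mean of all measured sets gave 2 regulators higher and 1 clock factor in each direction, and plain sets gave 0 transporters higher. Causes were not tested. Scaling to the median moved the split over all genes from 1079 higher and 1134 lower to 914 and 1329, and loess to 953 and 1259. The floor at the 30th percentile gave 2488 and 2502, the floor at the 70th percentile gave 441 and 527, and the 2-fold threshold 288 and 344.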

Other observations

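The chromosomal neighbours of the 3 genes past 1.5-fold were read as the 3 nearest protein-coding genes on each side in RefSeq, a choice made after the data were seen. Around Cyp7a1, 5 of 6 neighbours were above the floor on at least 1 array. Bpnt2, Sdcbp and Nsmaf, above it on both, had log2 ratios of -0.21, -0.27 and -0.22. Tox, under the floor in the control alone, read 14.3 and 53.0, at least 2.97-fold higher. Around Cyp7b1, the 4 neighbours above the floor ranged from -0.24 to -0.083. Around Slc10a2, Arglu1 had a ratio of 0.16 and Efnb2 one of -0.28, and Cers4 read 31.1 and 8.30, at least 1.75-fold lower.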
